A study of Arabidopsis thaliana with 24 samples.

Results

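The measurement described here is the balance between the 2 parental alleles of each gene in F1 hybrids of Arabidopsis thaliana, compared between prmt5-5 and wild-type hybrids. The hybrids were made between Columbia (Col-0, here Col) and Landsberg erecta (Ler), and the measurement was taken from 12 of the 24 libraries of the series. Each F1 library carried, for every gene, a count of reads assigned to the Col allele and a count of reads assigned to the Ler allele. The quantity followed was log2 of the Ler count over the Col count in the prmt5-5 libraries minus the same in the wild-type (WT) libraries, fitted per gene with the library as a block. A positive change therefore means a larger Ler part in prmt5-5, and a negative change a larger Col part. Of 33599 genes with values, 16650 had enough allele counts to be tested.

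All libraries came from polyadenylated RNA of entire seedlings. The extraction field of the labels gives 9 days on agar medium in continuous white light at 22 °C after 4 days in the cold, while their growth field gives soil and long days; the labels do not reconcile the 2 fields. There were 4 F1 groups of 3 libraries: WT F1 Col x Ler, WT F1 Ler x Col, and both crosses between a Col and a Ler parent that were each prmt5-5. Per the labels, prmt5-5 was isolated in Col-0 and was carried into Ler by 7 generations of backcrossing in which the presence of the mutant allele was followed. All prmt5-5 hybrids thus descend on the Ler side from that backcrossed line, and the WT hybrids do not. The other 12 libraries were of the parents, Col and Ler, each as WT and as prmt5-5, again 3 per group. Nothing in the labels tells if replicates were grown apart, and p-values therefore measure only the spread between these samples, which may be technical.

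PRMT5 adds symmetric dimethyl groups to arginines of histones and of the Sm proteins that form the core of spliceosomal snRNPs. In Arabidopsis it is known for its part in pre-mRNA splicing, in particular at introns with weak donor (5′) splice sites, and mutants have altered flowering and circadian rhythms. In an F1 hybrid both alleles of a gene are in the same nuclei. A factor that acts on both copies alike leaves their ratio as it was. A change of the ratio can mean, among other things, that the copies were affected unequally or that one of them is no longer there.

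The F1 libraries held between 6047673 and 29376326 allele counts, of which 48.0% to 48.9% were from Ler. Beyond the stretches described next, the median gene had a Ler share (Ler counts as a percentage of both alleles' counts) between 49.8% and 50% in each of the 12 libraries. Of the allele counts between 1 and 20, 75.4% were even numbers, and if mates of a pair were counted apart, intervals, which allow for counting error alone, are too small. The 4 leaf and shoot markers summed to 10700 to 19000 CPM (counts scaled to the library total) in the WT F1 libraries. In the prmt5-5 F1 libraries they summed to 4260 to 9910 CPM, with no overlap. That sum was nearly all LHCB1.1 (9730 to 17700 and 3850 to 9330 CPM) and LHCB3 (970 to 1790 and 306 to 688 CPM). RBCS1A and RCA had at most 16.3 CPM from both alleles in any F1 library and overlapped between genotypes. Their parental means were at least 7950 CPM. From WT to prmt5-5, RCA had 10300 and 10300 CPM in Col and 7950 and 10300 CPM in Ler. RBCS1A had 15400 and 14600 CPM in Col and 13100 and 14900 CPM in Ler. Root markers summed to 94.2 to 182 CPM and 90.5 to 153 CPM, with COBL9 and CASP1 at or near 0. Seed storage markers reached at most 6.06 CPM and flower markers at most 7.54 CPM. In such bulk samples, fewer cells of a type and less RNA per cell cannot be told apart. The part of the shift of LHCB1.1 and LHCB3 in the allele ratios was not tested.

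PRMT5 itself (AT4G31120, chromosome 4, 15132011 to 15136696, minus strand) showed the crosses at its own locus. Its Ler share was 50.4% at the lowest, 53.6% at the median and 58.8% at the highest in the 6 WT libraries. In the 6 prmt5-5 libraries it was 0 in 5 and 0.99% in the other, F1 Col x Ler replicate 3. The groups were far apart. Summed over libraries, 555 of 1046 counts were from Ler in WT (53.1%, exact 95% Clopper-Pearson interval 50% to 56.1%) and 2 of 1057 in prmt5-5 (0.189%, 0.0229% to 0.682%). Its Col allele rose from a median of 6.36 CPM to 14.6 CPM (log2 change 1.16, standard error (SE) 0.16, adjusted p = 1.09e-04). Every adjusted p here is from the quasi-likelihood test of edgeR with Benjamini-Hochberg adjustment over all genes tested, and a gene was called when it was under 0.05.

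Across the genome, 655 of 16650 genes tested had a called change of the allele ratio (3.93%), 186 with a higher Ler share in prmt5-5 (1.12%) and 469 with a lower one (2.82%). The excess of lowered genes lay in 3 stretches. Of 510 bins of 200 kb with at least 10 tested genes, 17 had a median change of 0.3 or more in size on the log2 scale, and all 17 were lower. The medians of the remaining bins ran from -0.17 to 0.18. These stretches, together with the run of genes around PRMT5 whose Ler share was under 10% in prmt5-5 F1 and at least 20% in WT F1, are called the Col regions below. They lie on chromosomes 2, 3 and 4, and hold 579 tested genes, 285 of them called and all 285 lower (49.2%).

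**Figure D1:**
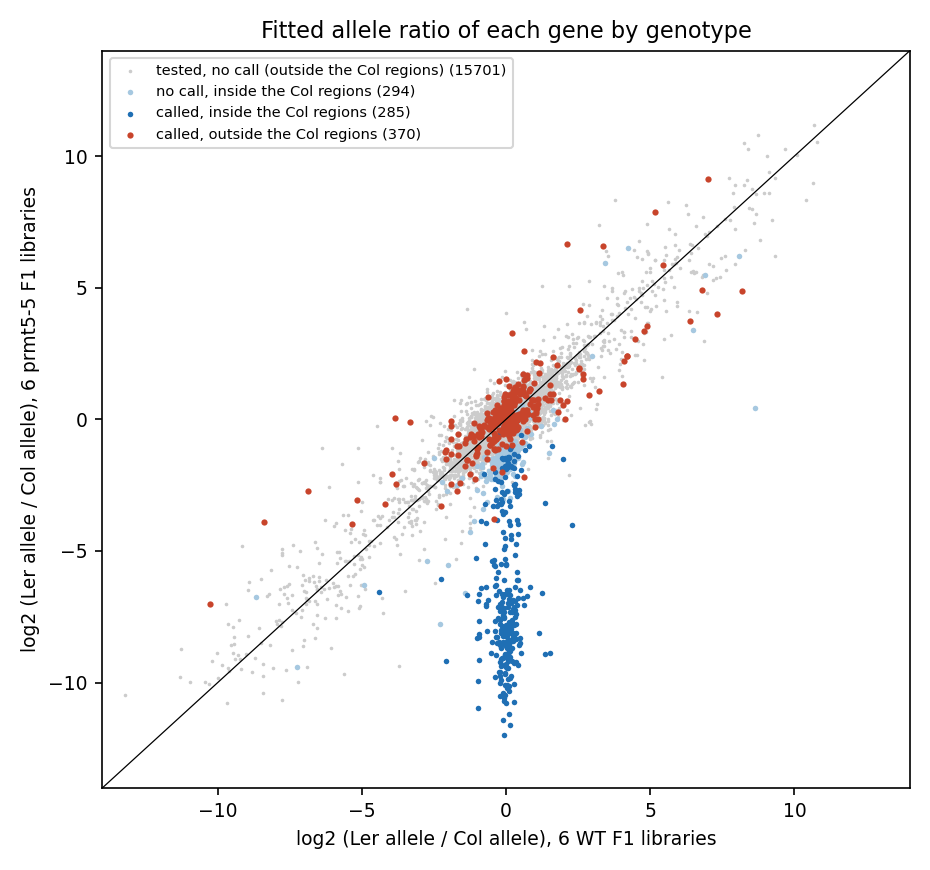
Fitted log2 ratio of the Ler over the Col allele for 16650 genes, in the 6 WT F1 libraries (x axis) and in the 6 prmt5-5 F1 libraries (y axis). Each point is a gene, the line marks an unchanged ratio, and the 285 called genes inside the Col regions lie below it, while the 370 called genes outside lie on both sides.

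The stretch around PRMT5 was the most complete. The run went from AT4G30120 to AT4G33690 (chromosome 4, 14730215 to 16176328), and 211 of its 219 genes with enough counts met the criteria. In the Col region that contains it (to 16200000), 226 of 239 tested genes were called. Among its 164 genes with 20 or more allele counts in every library, the median Ler share was 0% to 0.2% in each of the 6 prmt5-5 libraries. In the 6 WT libraries it was 49.9% to 50.6%. Pooled over all 239 tested genes of the region, some of them past the end of the run, the Ler share was 0.73% to 1.27% per prmt5-5 library. In the run itself, 43 of 215 genes with counts had no Ler count in prmt5-5 at all and 12 had a Ler share over 5%. The values of the run give the level that assignment of reads to the Ler allele reached along it.

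The 3 genes with the most allele counts there show both alleles. GLDP1 (AT4G33010), the P-protein of glycine decarboxylase in photorespiration, had a Ler share of 49.7% to 51.2% in WT and of 0.181% to 0.992% in prmt5-5. Its Col allele had a median of 521 CPM in WT and 844 CPM in prmt5-5. AT4G32020 and AT4G32060, which encode a serine/arginine repetitive matrix-like protein and an EF-hand protein, had medians of 417 and 130 CPM from the Col allele in WT and 694 and 277 CPM in prmt5-5. Over the 239 genes, the Col allele had a median log2 change of 0.97 (quartiles 0.76 and 1.28), it rose in 185 and it fell in 1. Outside the Col regions the median change of the Col allele was 0.00, with quartiles of -0.24 and 0.28. Near PRMT5, then, the counts of the Col allele were close to doubled while those of the Ler allele were close to 0.

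Beside PRMT5, the members of the gene lists that were tested in this stretch were RSZ22 (AT4G31580), an SR splicing factor, whose Ler share went from a median of 44.9% to 0.339%, and ADR1-L1 (AT4G33300), a helper NLR of immunity, from 46.9% to 0.19%. Both were called. SmF (AT4G30220) and SmEa (AT4G30330), also on the lists, had too few allele counts to be tested. The Col allele of ADR1-L1 rose by 1.56 in log2 units (SE 0.32, adjusted p = 8.86e-03), and that of RSZ22 by 1.01 (SE 0.09, adjusted p = 1.63e-06). Of the 13 tested genes of the region that were not called, AT4G33730, AT4G33740, AT4G33760 and AT4G33770 come after the end of the run, and their changes were 0.37, 0.02, -0.53 and -0.14.

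On chromosome 2, from 6200001 to 6800000, the Ler share was lowered in all 6 prmt5-5 libraries but to unequal levels. The median gene had a Ler share of 14.4%, 18.7% and 7.0% in the 3 F1 Col x Ler prmt5-5 libraries, in the order of their replicate numbers. In F1 Ler x Col prmt5-5 it was 0.0%, 18.7% and 18.6%. The WT libraries had medians of 47.7% to 49.5%. In F1 Ler x Col prmt5-5 replicate 1 the median was thus at 0, and the other 5 kept a reduced Ler share. The median change of the 43 tested genes was -2.76 and 26 were called, all lower.

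TIC21 (AT2G15290), a protein of the inner chloroplast envelope, had a Ler share of 43.9% to 48.5% in WT and of 0.331% to 17.6%, with a median of 13%, in prmt5-5. Its change was -2.94 (SE 0.65, adjusted p = 0.0478). The call was lost when any 1 of 10 of the 12 libraries was left out (adjusted p 0.0781 to 0.12). The exceptions were F1 Ler x Col prmt5-5 replicates 1 and 2. It was also lost with limma (0.146), without a filter (0.0659) and with a replicate block (0.0953). AT2G14880, which encodes a SWIB domain protein, had a change of -3.12 (adjusted p = 0.0688). It was called without F1 Ler x Col prmt5-5 replicate 1 (adjusted p = 0.00148), by the DESeq2 Wald test (0.00693) and with counts divided by 2 (0.0309). One of the most counted genes in this region was not lowered, and it lies close to the first edge of the region. LURP1 (AT2G14560), a gene induced in defence against oomycetes, had a Ler share of 55.5% to 65.9% in WT and 53.1% to 67.9% in prmt5-5, with a change of -0.01 (SE 0.19).

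On chromosome 3 the lowered stretch began at the first tested genes of the chromosome and was counted to 1400000. Here the prmt5-5 libraries differed most from each other. The median Ler share was 37.6%, 22.0% and 13.5% in F1 Col x Ler prmt5-5 replicates 1, 2 and 3, and 49.5%, 14.7% and 31.9% in F1 Ler x Col prmt5-5. F1 Ler x Col prmt5-5 replicate 1 was thus at the level of WT, where the medians were 49.9% to 50.3%. In F1 Ler x Col prmt5-5 replicate 2 the median bin values were 0.3% and 0.9% over the first 400 kb (2 bins) and 15.2% to 16.4% in the following 5 bins. The other prmt5-5 libraries kept about the same level along the whole stretch. Of 297 tested genes 295 had a negative change, with a median of -1.48, but only 33 were called.

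**Figure D2:**
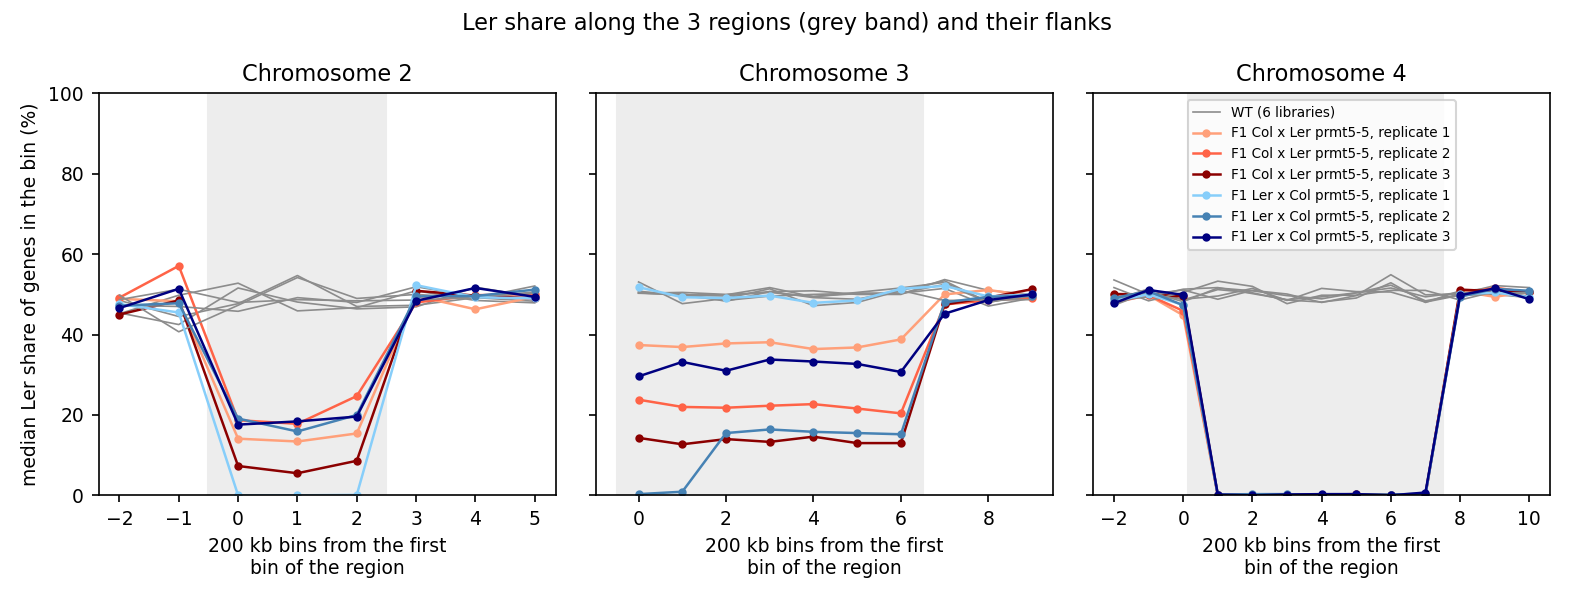
Median Ler share of the genes in each 200 kb bin (y axis, %) along the Col regions of chromosomes 2, 3 and 4 (grey band) and their flanks, with bins numbered from the first bin of the region (x axis). Each line is 1 library; WT libraries (grey) stay near 50%, all prmt5-5 libraries fall to about 0% on chromosome 4, and they take separate levels on chromosomes 2 and 3, where F1 Ler x Col prmt5-5 replicate 1 is at 0.0% and at 49.5%.

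Even strongly counted genes of the chromosome 3 stretch did not pass the edgeR test. The carbonic anhydrase gene CA1 (AT3G01500) had a Ler share of 41.7% to 42.7% in WT and of 0.44% to 42.5% in prmt5-5, and its change of -1.81 had an SE of 1.11. SAMDC (AT3G02470), an enzyme of polyamine synthesis, had a change of -1.52 (adjusted p = 0.198; 0.0114 with the DESeq2 Wald test, which called it). The glycolytic gene GAPC1 (AT3G04120) had a change of -1.46 (adjusted p = 0.205), and it was called without F1 Ler x Col prmt5-5 replicate 1 (adjusted p = 0.0481) and by the DESeq2 Wald test (0.0495). FLK (AT3G04610), a KH-domain RNA-binding protein that promotes flowering by lowering FLC and whose splicing has been linked to PRMT5, was among the 33 called. Its Ler share was 42.1%, 43.3% and 45.2% at the lowest, median and highest WT library and 6.26%, 13.7% and 29.8% in prmt5-5, without overlap. Its Col allele rose from a median of 61.4 to 189 CPM, a log2 change of 1.55 (SE 0.12, adjusted p = 2.27e-07), where the median gene of the stretch had 0.54. The Ler allele of FLK had a change of -0.59 (adjusted p = 0.316). The call on its ratio (-2.27, SE 0.47, adjusted p = 0.0342) was lost when any 1 of 9 libraries was left out (adjusted p 0.069 to 0.0945). These were the 6 WT libraries, F1 Col x Ler prmt5-5 replicates 2 and 3 and F1 Ler x Col prmt5-5 replicate 3.

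Past 1400000 the same pattern of libraries continued as far as AT3G05165, which starts at 1457381. From AT3G05180, at 1468398, the changes were small, with -0.29 for AT3G05180, -0.19 for AT3G05190 and -0.11 for ATL6. One of the genes named below, AT3G05155 (1448196 to 1452215), lies in this continuation.

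Outside the Col regions 370 of 16071 tested genes were called (2.30%), 186 with a higher Ler share in prmt5-5 (1.16%) and 184 with a lower one (1.14%). With a separate scaling of each allele column, which moved the median change by 0.03, the split was 271 higher and 144 lower of 415 called (65.3% higher against 50.3%). Most changes were small. The median size of the called changes was 0.45 on the log2 scale, and 60 genes reached 2-fold, 27 higher and 33 lower. In 211 of the 370, the 6 prmt5-5 libraries lay wholly beyond the 6 WT libraries (1.31% of genes tested were called and without overlap, and 1.72% were without overlap). The called genes were spread over all chromosomes, with 2.12% of tested genes on chromosome 1, 1.83% on chromosome 2, 2.44% on chromosome 3, 3.03% on chromosome 4 and 2.24% on chromosome 5.

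The direction of the cross made no called difference. The 2 crosses share no library, and the test of the change in F1 Col x Ler minus that in F1 Ler x Col called 0 of 16650 genes. At an unadjusted p under 0.05 there were 663 genes (3.98%), and DESeq2 and limma also called 0. With F1 Ler x Col prmt5-5 replicate 2 left out, 1 gene was called, LSF1 (AT3G01510), in the chromosome 3 stretch where that library stood apart. Tested by cross in the fit of all 12 libraries, F1 Col x Ler gave 366 called genes (2.2%), 147 of them outside the Col regions (0.915% of those tested there). F1 Ler x Col gave 443 (2.66%), of which 219 were outside (1.36%). All 370 genes called over both crosses had the same sign in each cross, which the test over both crosses favours.

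The changes were of several kinds with respect to the imbalance that was already present. In WT, 4933 of the 16071 genes outside the Col regions had unequal alleles (30.7%), and in prmt5-5 5047 had (31.4%). Of the 370 called genes, 197 were unequal in the same direction in both genotypes. Among those, the imbalance was smaller in prmt5-5 in 104 and larger in 93. A further 67 genes were called unequal in WT alone, 91 in prmt5-5 alone, and in 15 the favoured allele was reversed. Over all 370 the imbalance was smaller in prmt5-5 in 47.6%, against 50.8% of all genes tested outside the regions.

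Large changes were often found where the alleles already differed strongly in WT. Of the 60 genes with at least a 2-fold change, 32 (53.3%) had alleles that differed by 4-fold or more in WT, against 1 of 207 genes (0.483%) with a change under 0.5 and 4.71% of all genes tested. Noncoding RNAs and pseudogenes made up 23.3% of the 60 and 3.69% of all genes with an annotation. The 60 genes had a median of 158 allele counts per library, against 1090 for all called genes with an annotation. Where 1 allele has few counts, its log2 ratio is unsteady and only a large change can be called. The part of this in these shares was not tested.

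Which allele moved was read from separate fits of the Col and the Ler counts. The Col allele of 3030 genes changed in prmt5-5 (18.2%), 2692 of them outside the Col regions (16.8%). The Ler allele of 2895 genes changed (17.4%), 2597 of them outside (16.2%). Among the 370 genes, the Col allele alone passed the test in 84 and the Ler allele alone in 92. Both alleles moved the same way in 86 genes, to unequal degrees, and in opposite ways in 3. In the other 105 neither allele passed alone. Where the Ler share was lower, the Col allele had risen in 83 genes and the Ler allele had fallen in 56. Where it was higher, the Ler allele had risen in 91 and the Col allele had fallen in 38.

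AT5G50310, which encodes a kelch repeat protein, was a gene in which 1 allele moved and the other did not pass the test (chromosome 5, 20474457 to 20479478, plus strand). AT5G50310 had a Ler share of 50.2%, 52.5% and 57.7% at the lowest, median and highest WT library and 88.5%, 89.9% and 93.8% in prmt5-5. In WT the alleles were nearly even, while the prmt5-5 libraries held 201 to 594 counts of the Ler allele and 25 to 65 of the Col allele. The change was 3.08 (SE 0.13, adjusted p = 5.34e-22), 3.18 in Col x Ler and 2.98 in the reverse cross. The Col allele of AT5G50310 fell by 2.92 (log2, SE 0.17), from a median of 27.4 CPM to 3.58 CPM. The Ler allele was at a median of 32.4 CPM in WT and 35.4 CPM in prmt5-5 (0.14, SE 0.09, adjusted p = 0.338). In the parents, which are other libraries, the gene went from 46.1 ± 0.674 CPM (SD, n = 3) to 4.01 ± 0.296 CPM in Col and from 45.8 ± 3.06 CPM to 53.5 ± 1.70 CPM in Ler.

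The AT5G50310 gene model of the reference, which is the Col sequence, has 19 donor sites. Since PRMT5 is known for introns with weak donor sites, the sites of this gene that depart from G at the last exon base (-1) or at the fifth intron base (+5) are shown with one that has both, from the last 3 exon bases to the first 6 intron bases. Capitals mark positions -1 and +5. The Ler sequence of these sites was not used here, and the counts are per gene, so the use of single introns was not measured.
AT5G50310 donor 1: ctCgtaaTt
AT5G50310 donor 4: ttGgtagAt
AT5G50310 donor 6: atGgtaaGt
AT5G50310 donor 7: aaGgtagTa
AT5G50310 donor 8: aaGgtaaAc
AT5G50310 donor 10: aaAgtatGt
AT5G50310 donor 16: gaGgtacTa

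Donor 1, at chr5:20474691-20474699, lacks both G bases, and donor 6 has both. In total 5 of the 19 sites lack G at +5 and 2 lack it at -1. Over all genes tested outside the Col regions, 49.9% of GT donor sites lack G at +5 and 23.2% lack it at -1. AT5G50310 thus has no excess of such sites, and 21.3% of those genes have a GT donor with neither G.

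The reverse pattern was seen in DES1 (AT5G28030, chromosome 5, 10029632 to 10032962, minus strand), which encodes an L-cysteine desulfhydrase that releases hydrogen sulfide. The Ler share of DES1 was 92.1%, 95% and 96.4% at the lowest, median and highest WT library and 80.0%, 83.9% and 87.0% in prmt5-5, without overlap. The change was -1.78 (SE 0.10, adjusted p = 2.69e-14). Here the allele with fewer counts moved. The Col allele rose by 1.84 (SE 0.20), from a median of 5.15 CPM to 21.3 CPM. The Ler allele had a median of 96.7 CPM in WT and 112 CPM in prmt5-5 (0.07, adjusted p = 0.717). In the Col parent, DES1 went from 2.94 ± 0.427 CPM to 9.09 ± 1.58 CPM (SD, n = 3), and in Ler from 66.7 ± 5.94 CPM to 66.4 ± 24.1 CPM. The reference model of DES1 has 10 donor sites, of which 5 lack G at +5 and 2 lack it at -1. Those counts are near the 49.9% and 23.2% of donor sites over all genes, and are no excess. The sites without G at +5 are shown because it is the Col allele, whose letters these are, that rose.
DES1 donor 3: gaAgtaaAa
DES1 donor 4: aaGgttaAa
DES1 donor 5: gaGgttaTa
DES1 donor 6: aaGgttcAa
DES1 donor 9: ttGgtacCa

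AT4G02850, which encodes a PhzC/PhzF family protein, was one of the 3 called genes whose alleles moved in opposite directions. In WT libraries its Ler share was 2.65%, 5.87% and 8.01% at the lowest, median and highest and 16.8%, 19.3% and 20.8% in prmt5-5. Its Col allele fell by 0.91 in log2 (SE 0.13), its Ler allele rose by 1.04 (SE 0.22), and the change was 1.88 (SE 0.19, adjusted p = 1.16e-06). The gene overlaps SmD1b (AT4G02840), a core spliceosomal Sm protein gene, on the opposite strand. Whether counting used strand is not given in the sources, so reads of the 2 genes cannot be told apart.

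**Figure D3:**
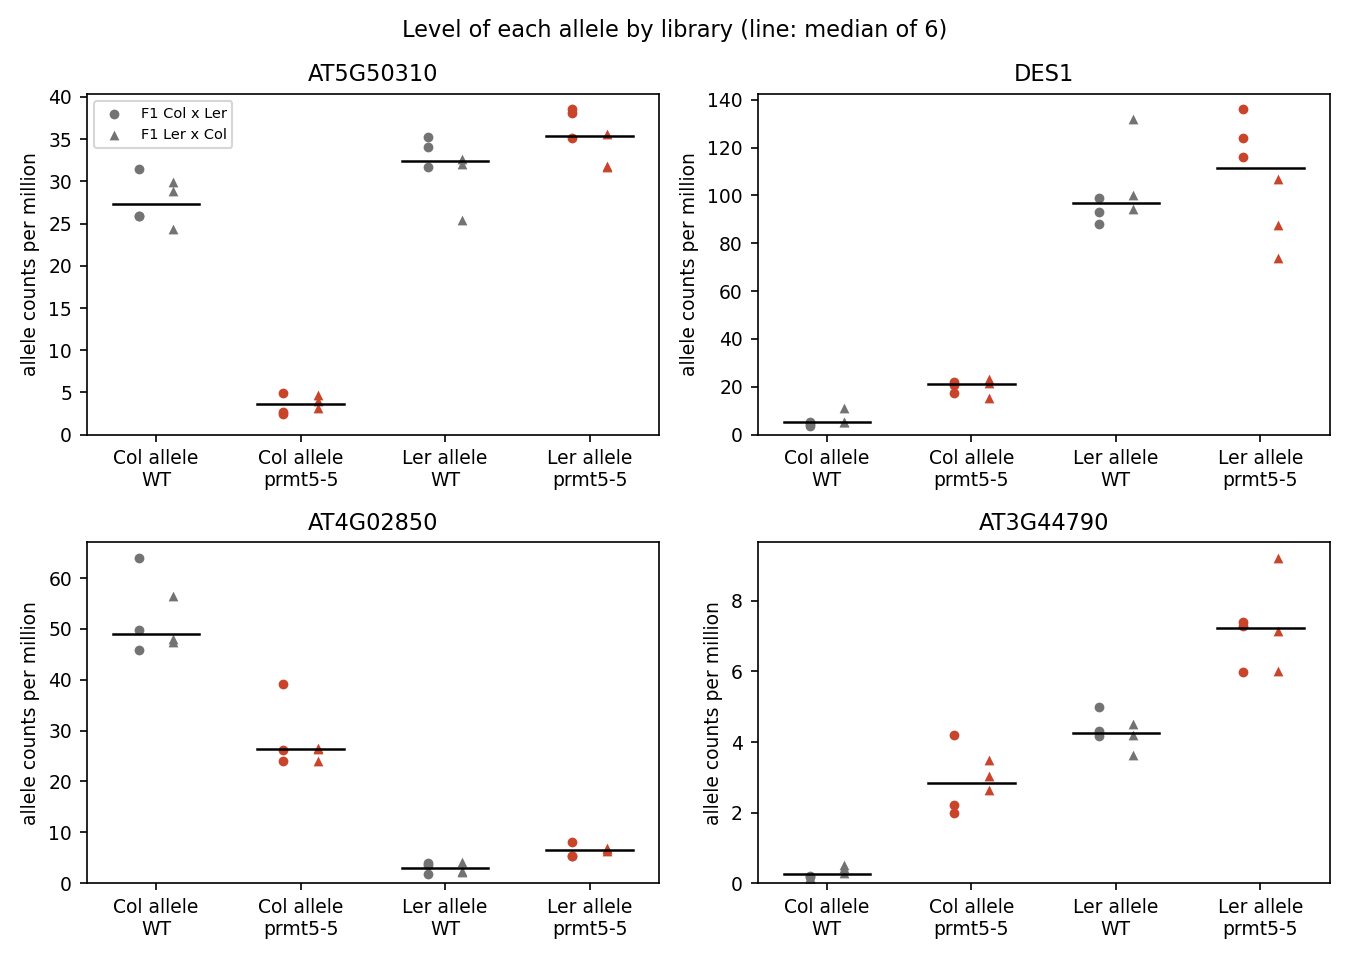
CPM (y axis) of the Col and of the Ler allele in each of the 12 F1 libraries for AT5G50310, DES1, AT4G02850 and AT3G44790 (circles F1 Col x Ler, triangles F1 Ler x Col, lines the median of 6 libraries). In AT5G50310 and DES1 the Col allele moves while the Ler allele overlaps between genotypes.

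Genes are described next that were called outside the Col regions, had no overlap of libraries and a mean of at least 20 allele counts per genotype, 12 in each direction by the size of the change in log2 ratio. The order is not one of differences in share, and called genes whose libraries overlapped, such as AT4G04410 (4.13), AT4G04402 (2.12) and AT1G44510 (-1.88), are left out by this rule. Like AT4G02850, several of these genes overlap an annotated gene on the opposite strand, from which their reads cannot be told apart. With a positive change these are LAC8, AT5G47740, AT1G34100 and AT5G66180. With a negative change they are AT3G16940, AT3G09800, SPL4, AT5G24240 and AT5G64685. The other genes with a positive change were of mixed kinds. LAC8 (AT5G01040), a laccase, went from a Ler share of 37.0% to 59.1% in WT to 67.4% to 74.9% in prmt5-5. Its Ler allele rose from a median of 8.93 to 18 CPM (1.04, SE 0.21), and the Col allele had 8.55 and 7.13 CPM. AT5G47740, annotated as an adenine nucleotide alpha hydrolase-like protein, likewise had even alleles in WT (median 47.9% Ler) and 74.0% Ler in prmt5-5, with the Ler allele up by 1.69 (SE 0.21). RLP2 (AT1G17240), a receptor-like protein, went from a median of 21.6% to 48.7%, close to equality. In AT1G34100 the median share went from 60.1% to 85.5%, and its Col allele fell by 1.27 (log2, SE 0.40).

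In 3 of these genes the Ler allele had few counts in WT and more in prmt5-5. The noncoding RNA gene AT2G42485 had Ler shares of 0% to 1.33% in WT and 3.85% to 8.33% in prmt5-5. AT5G66180, a methyltransferase-like gene that overlaps AT5G66190 on the opposite strand, had 0% to 4.23% and 5.88% to 14.3%. In the WT parents, however, AT5G66180 had means of 63.1 CPM in Col and 53.0 CPM in Ler. Its F1 shares were thus unlike the parental levels, and the reason was not tested. The noncoding RNA gene AT3G26612 went from a median of 12.4% to 24%. Absence of overlap between WT and prmt5-5 was a condition of the choice of these genes and adds nothing to their calls. Their calls stood in each of the 20 alternative analyses.

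Calls on the remaining 3 genes in this group depended on single libraries. AT5G44570 had 0 Col counts in 5 of the 6 prmt5-5 libraries and as few as 4 allele counts in 1 of them, and its call was lost without F1 Ler x Col prmt5-5 replicate 2 (adjusted p = 0.0887). The chitinase family gene AT2G43590 had Ler shares of 12.2% to 33.5% in WT and 38.5% to 56.0% in prmt5-5. The WT parents did not show this imbalance, with 69.2 ± 23.3 CPM in Col and 66.9 ± 37.3 CPM in Ler for AT2G43590. Its call was lost when any 1 of 7 libraries was left out (adjusted p 0.0561 to 0.0734), which were the 3 of WT F1 Col x Ler, F1 Col x Ler prmt5-5 replicates 2 and 3, and replicate 2 of both F1 Ler x Col groups. The call on the lipid transfer protein gene LP1 (adjusted p = 0.0425) was lost whichever of the 12 libraries was left out (0.0527 to 0.117), with the DESeq2 Wald test (0.0822) and with no filter (0.0651). LP1 had WT medians of 1.81 CPM from the Col and 1.28 CPM from the Ler allele in F1. The WT parents had means of 732 CPM in Col and 439 CPM in Ler.

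Among the 12 genes with a negative change chosen by the same rule, the Col allele was the lesser one in WT in 11. That its part grew in prmt5-5 is the sign they were chosen for. A choice by log2 size also favours genes in which 1 allele has few counts. AT3G44790, a TRAF-like gene, had Ler shares of 87.5%, 94.8% and 100% at the lowest, median and highest WT library and 63.3%, 72.6% and 77.8% in prmt5-5. Its Col allele rose from a median of 0.246 to 2.84 CPM (3.48, SE 0.38) and the Ler allele rose less, from 4.26 to 7.22 CPM (0.74, SE 0.16). AT4G29760, a target of trans-acting siRNAs, went from a median of 99.2% to 93.2%, and AT3G09800, a SNARE-like gene, from 96.9% to 90.6%. The WT parents did not show the imbalance of AT3G09800, with means of 11.1 CPM in Col and 12.8 CPM in Ler. AT3G16940, a calmodulin-binding transcription activator (CAMTA family) gene, rose from both alleles, by 4.54 (SE 0.40) from Col and 2.32 (SE 0.30) from Ler. Its F1 counts were few, with 10 allele counts in the thinnest library. In WT F1 the medians of AT3G16940 were 0.17 CPM from Col and 1.55 CPM from Ler. The WT parents had means of 50.5 CPM in Col and 62.9 CPM in Ler. AT5G15360 and AT5G35965, of unknown function, had median shares of 99.7% and 100% in WT and of 97.1% and 94.6% in prmt5-5, and AT5G26970 87.0% and 65.1%. The AT5G15360 call was lost with limma on log ratios (adjusted p = 0.0591).

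SPL4 (AT1G53160), a squamosa promoter binding protein-like transcription factor that promotes the floral transition, was the exception with even alleles in WT. SPL4 had a Ler share of 34.5%, 46.3% and 66.7% at the lowest, median and highest WT library and 8.33%, 19.4% and 28.6% in prmt5-5, and its change was -1.86 (SE 0.47, adjusted p = 0.0101). The SPL4 Ler allele fell by 1.65 (log2, SE 0.42), and the Col allele had 2.00 CPM in WT and 1.90 CPM in prmt5-5. These values rest on 10 allele counts in the thinnest library. AT5G24240, a phosphatidylinositol 4-kinase-like gene, had a call that was lost when any 1 of 8 libraries was left out (0.0677 to 0.0884), namely the 6 WT libraries and F1 Ler x Col prmt5-5 replicates 1 and 3, and with a replicate block (0.0723). The call on AT5G64685 was lost without F1 Col x Ler prmt5-5 replicate 1 (adjusted p = 0.237) and with the DESeq2 Wald test (0.0668), and its shares of 95% to 97.2% in WT and 82.2% to 95.2% in prmt5-5 met at their edges. AT3G05155, in the continuation of the chromosome 3 stretch, had a Ler share of 74.4% to 85.4% in WT and 27.8% to 71.7% in prmt5-5.

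**Figure D4:**
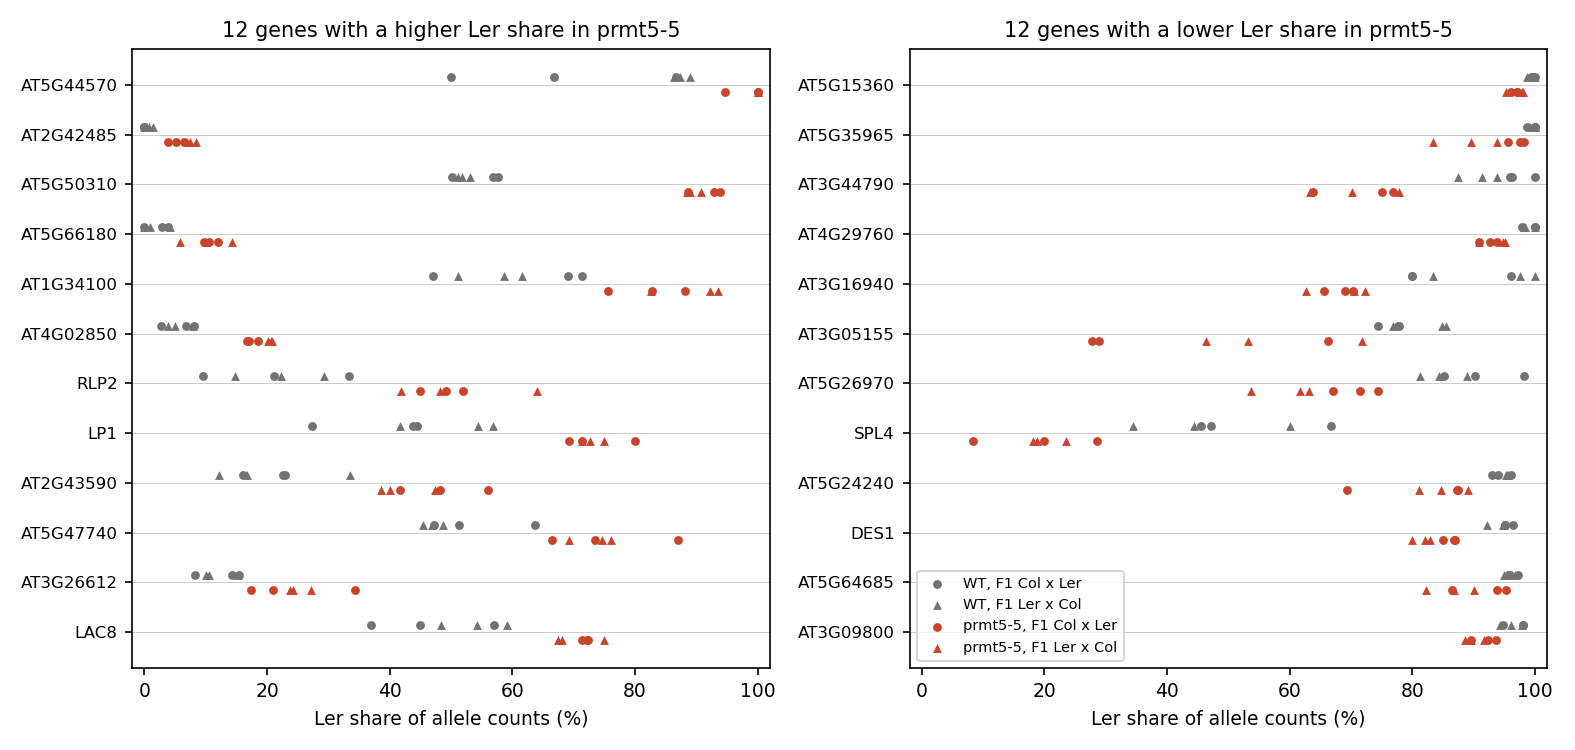
Ler share of the allele counts (x axis, %) in each of the 12 F1 libraries for the 12 genes with a positive (left) and the 12 with a negative change (right) of the log2 allele ratio that were chosen by size among called genes outside the Col regions. Grey points are WT and red points prmt5-5; the choice of these genes required that the log ratios, with 0.5 added to each count, did not overlap, and in AT5G64685 the shares themselves meet (95% lowest in WT, 95.2% highest in prmt5-5).

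The parental libraries, which took no part in the choice of these genes, gave a measurement in other libraries. Their Ler prmt5-5 plants are, per the labels, of the backcrossed kind from which the prmt5-5 hybrids descend. Differences of that line other than prmt5-5 could thus enter both measures, and their part was not tested. There the prmt5-5 effect in Ler minus that in Col was tested as an interaction. Of the genes tested in both fits and outside the Col regions, 582 of 16044 had a called interaction (3.63%). Of the 370 genes with a called change of the allele ratio, 101 did (27.3%), against 3.07% of the genes with no called change. The sign of the parental difference was that of the allelic change in 288 of the 370 (77.8%), against 54.0% of the genes with no called change, and in 96 of the 101. Across these 370 genes, which are not independent replicates, Pearson's r between both measures was 0.52 and Spearman's rho 0.61. Seen from the other side, 101 of the 582 parental interactions (17.4%) came with a called change between alleles.

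The number of parental calls moved with single libraries. It was 768 over all 22924 genes tested (3.35%) and 1744 without Ler prmt5-5 replicate 1. Leaving out Col WT replicate 3 gave 380, Col prmt5-5 replicate 3 410, Ler prmt5-5 replicate 2 460 and replicate 3 454. The share with the sign of the allelic change was steady, from 76.5% to 79.2% of the 370 genes over the 12 parental libraries left out in turn, while the number with a called interaction ran from 69 to 142.

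AT5G50310 had a parental interaction of 3.74 (SE 0.10, adjusted p = 6.03e-11), beside the allelic change of 3.08. DES1 had -1.60 (SE 0.33, adjusted p = 0.0264) beside -1.78, and AT4G02850 1.27 (SE 0.24) beside 1.88. AT4G29760 had -3.39 (SE 0.46) beside -2.64. LAC8, AT5G47740, AT1G34100, AT3G26612, AT3G44790, AT5G15360 and AT3G05155 also had called interactions with the sign of their allelic change. Of these, AT3G05155 lies in the continuation of the lowered chromosome 3 stretch. In the other genes chosen by size the interaction was not called. Its sign was opposite in AT3G16940 (0.20, SE 0.11, adjusted p = 0.385, beside -2.12), AT2G42485 (-0.81, SE 0.84) and AT5G26970 (0.97, SE 1.22). It had the sign of the allelic change in AT5G66180 (0.25), LP1 (0.16), AT2G43590 (0.43), RLP2 (0.8) and AT5G44570 (1.84). The same held for AT5G35965 (-3.07), SPL4 (-0.85), AT5G24240 (-1.07), AT5G64685 (-0.98) and AT3G09800 (-0.31).

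**Figure D5:**
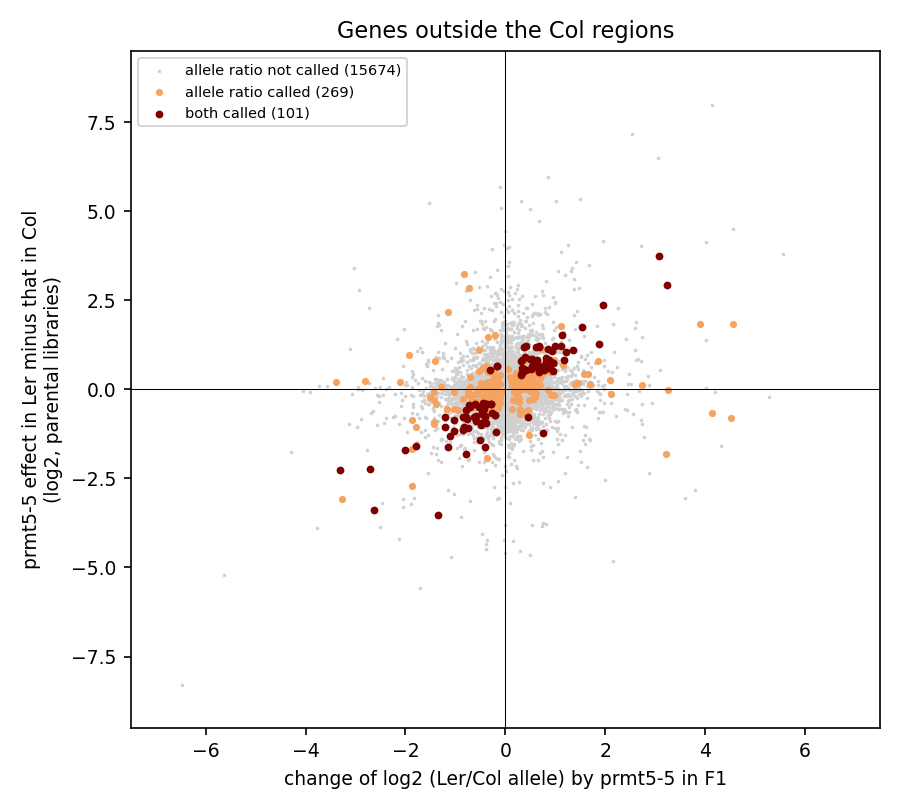
Change of log2 (Ler over Col allele) from WT to prmt5-5 in the F1 libraries (x axis) and prmt5-5 effect in Ler minus that in Col in the parental libraries (y axis, log2), per gene outside the Col regions. Of the 101 genes called in both (dark points), 96 have the same sign on both axes; grey points are 15674 genes with no called change of the allele ratio.

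Lists of genes in processes known to involve PRMT5 were counted outside the Col regions. None of 17 SR and PTB splicing factors, 22 flowering time genes, 10 genes linked to PRMT5 in earlier work, 5 PRMT family members, 3 genes of nonsense-mediated decay and 14 cold, drought and abscisic acid genes was called. With 2.30% of all tested genes called, counts of 0 in lists this short are near the background and are no result about the lists. The medians of these lists lay between -0.07 and 0.10.

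FLC (AT5G10140), the MADS-box repressor of flowering and a member of the flowering list, the list of genes linked to PRMT5 and that of loci that differ between accessions, had a fitted change of -4.29 (SE 1.33, adjusted p = 0.063). Its counts were few. In WT the 6 libraries held 0, 0, 0, 0, 6 and 14 Col counts, and 20 Col and 19 Ler counts in all. In prmt5-5 they held 0, 4, 11, 18, 20 and 30 Col counts, and 83 Col and 17 Ler counts in all. The groups overlapped. The Col allele of FLC rose by 3.86 (log2, SE 1.04, adjusted p = 0.0183), and that of Ler had a change of -0.40 (adjusted p = 0.713).

 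Of the 16 tested Sm, LSm and U1 snRNP genes, 1 was lower, LUC7RL (AT5G51410), which encodes a U1-associated LUC7 protein. Over all genes tested outside the Col regions 1.14% were lower, and 1 call in so short a list is no result about it. LUC7RL had a Ler share of 48.6%, 50.3% and 54.5% at the lowest, median and highest WT library and 40.7%, 43.5% and 49.7% in prmt5-5, so the groups overlapped, and the change was -0.36 (SE 0.09, adjusted p = 0.00867). It was not called without F1 Col x Ler prmt5-5 replicate 3 (adjusted p = 0.0615) or by the DESeq2 Wald test (0.0572). The parental interaction of LUC7RL was -0.40 (SE 0.09, adjusted p = 0.0318).

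Of 24 circadian clock genes, 1 was called. With 2.3% of all genes tested outside the Col regions called, 1 in so short a list is near the background. PRR7 (AT5G02810), a pseudo-response regulator that represses morning genes, had Ler shares of 55.9%, 60.1% and 62.2% at the lowest, median and highest WT library and 64.5%, 66.7% and 71.3% in prmt5-5, without overlap. The change was 0.45 (SE 0.07, adjusted p = 3.46e-06), and neither allele passed the test alone. The parental interaction of PRR7 had the opposite sign (-0.57, SE 0.21, adjusted p = 0.165).

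Among 25 NLR immune receptor genes, 2 were higher and 1 lower, against 1.16% and 1.14% of all genes tested outside the Col regions. RPP7 (AT1G58602), a receptor for downy mildew, had Ler shares of 47.7% to 52.7% in WT and 53.4% to 58.6% in prmt5-5 (0.38, SE 0.05, adjusted p = 3.33e-07). The RPP7 Col allele fell by 0.33 (log2, SE 0.10, adjusted p = 0.0249), and the Ler allele had a change of 0.05. In the parents RPP7 went from 281 ± 5.36 to 135 ± 4.09 CPM in Col and from 171 ± 7.40 to 186 ± 18.9 CPM in Ler (SD, n = 3), an interaction of 1.18 (SE 0.11, adjusted p = 8.96e-05). RPP4 (AT4G16860), of the Col RPP5 cluster, was lower (-0.41, SE 0.09), with a Col allele up by 0.55 (SE 0.17) and a parental interaction of -0.76 (SE 0.13, adjusted p = 0.0062). RPP8 (AT5G43470) had a change of 0.19 (SE 0.05, adjusted p = 0.0194) and lost its call without replicate 1 of any of the 4 F1 groups (0.0573 to 0.0706) and with the DESeq2 Wald test (0.12). Receptor genes of this kind lie in clusters of related copies that differ between accessions, and how reads were split between copies is not known from the sources.

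Of 28 genes of aliphatic glucosinolate synthesis and myrosinase, 2 were higher and 1 lower, beside the same 1.16% and 1.14%. MAM1 (AT5G23010), the synthase that begins chain elongation of methionine and which lies in a locus that differs between accessions, went from a median Ler share of 23.9% to 28.2% (0.32, SE 0.05, adjusted p = 1.38e-04). ESP (AT1G54040), the epithiospecifier protein, came nearly wholly from Ler in both genotypes, with median shares of 97.8% and 98.3% (0.41, SE 0.07, adjusted p = 0.00304), and its Col allele fell by 0.74 (log2, SE 0.19). The ESP call was lost with counts divided by 2 (adjusted p = 0.101). BASS5 (AT4G12030), a chloroplast transporter of keto acids, went from a median of 32.3% to 29.5% (-0.27, SE 0.06, adjusted p = 0.00472).

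Of 29 photosynthesis genes, 4 were lower and none higher (1.14% and 1.16% over all genes), and the median of the list was -0.01. The 4 changes were small, from -0.07 to -0.11. Outside the Col regions, called genes had a median of 1090 allele counts per library, against 214 over all genes with an annotation. Small changes pass the test more readily at high counts, and the part of this in the 4 calls was not tested. LHCB4.2 (AT3G08940) had a median Ler share of 42.6% in WT and 40.9% in prmt5-5 (-0.10, SE 0.02, adjusted p = 3.2e-05). In LHCB4.2, the Col allele fell by 0.89 (log2, SE 0.13) and the Ler allele by 0.99 (SE 0.13). RBCS2B (AT5G38420) and LHCB1.2 (AT1G29910) each had a change of -0.11 (SE 0.02), and LHCB2.2 (AT2G05070) -0.07 (SE 0.02, adjusted p = 0.0303). The LHCB2.2 call was lost with 8 of the 12 libraries left out 1 at a time, the exceptions being F1 Col x Ler WT and prmt5-5 replicate 1, F1 Ler x Col WT replicate 2 and F1 Ler x Col prmt5-5 replicate 1. It was also lost with a scaling factor per allele column (-0.04, adjusted p = 0.451) and with the DESeq2 Wald test (0.198). These genes have near-identical copies in the genome, so reads may be split between copies. Beside them stand the leaf and shoot markers given above. Of these, LHCB1.1 was at 9730 to 17700 CPM in WT and 3850 to 9330 CPM in prmt5-5, while RBCS1A and RCA overlapped between genotypes. The part of the markers in these ratios was not tested.

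The next lists each had 1 called gene. With 2.3% of all genes tested outside the Col regions called, 1 call in such lists is near the background. PR2 (AT3G57260), a glucanase marker of salicylic acid signalling, was the 1 called of 20 genes of salicylic acid and camalexin. Its change was -0.83 (SE 0.22, adjusted p = 0.0346), its Ler shares overlapped between groups, with 70.6% to 100% in WT and 55.6% to 81.2% in prmt5-5, and the DESeq2 Wald test did not call it (adjusted p = 0.789). AGO4 (AT2G27040), the Argonaute of RNA-directed DNA methylation, was the 1 called of 19 genes of DNA methylation and small RNA. Its median Ler share was 54.1% in WT and 50.3% in prmt5-5 (-0.24, SE 0.07, adjusted p = 0.026). The calls on PR2 and AGO4 were lost when single libraries were left out, 9 of 12 for PR2 (adjusted p 0.0611 to 0.297; all but F1 Col x Ler WT replicate 1, F1 Col x Ler prmt5-5 replicate 2 and F1 Ler x Col prmt5-5 replicate 1) and 6 of 12 for AGO4 (0.0569 to 0.15; F1 Col x Ler WT replicate 3, F1 Col x Ler prmt5-5 replicates 1 and 2, F1 Ler x Col WT replicates 1 and 3, and F1 Ler x Col prmt5-5 replicate 3). The AGO4 call was also lost with the DESeq2 Wald test (0.134) and with a factor per allele column (0.0693). Of 12 loci known to differ between Col and Ler, ESP and RPP8 were higher, RPP4 was lower and 9 were not called. Over all genes tested outside the Col regions, 1.16% were higher and 1.14% lower.

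The donor sites of the called genes were set beside those of all genes tested outside the Col regions, as a description. The 368 called genes with an annotation had a median of 1090 allele counts per library, against 214 over all 15998 genes, and 6 donor sites per gene, against 4. Genes without an intron made up 8.97% of the called and 14.2% of all. Of 2483 GT donor sites in called genes, 26.9% had no G at -1, against 23.2% of the 88173 sites of all genes. No G at +5 was seen in 48.2% and 49.9%, and neither G in 6.08% and 4.91%. Since called genes were more highly counted, the same was done for genes with at least 100 allele counts in every library, which gave 27.0% and 22.7% without G at -1, 47.7% and 49.2% without G at +5, and 5.67% and 4.59% without either. An annotated gene on the opposite strand overlapped 26.1% of called genes and 27.7% of all.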

How the data were processed

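The values deposited by the authors are raw counts, whole numbers with unequal totals: 1 per gene in a parental library and, in an F1 library, 1 for each allele. Per the submitters' processing notes, the tools were Trim Galore, FastQC and STAR 2.7.9a, with TAIR10. How reads were counted, if strand was used, and how a read was assigned to an allele: not given in the sources used here. Assignment of a read needs a difference between accessions, so genes with few differences have few allele counts. Of 33602 genes, 3 had no value in the Ler columns, and 32832 of the rest were matched to names, positions and donor sites of RefSeq TAIR10.1, whose nuclear chromosomes have the lengths of TAIR10; all coordinates are of that build.

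The 24 allele columns were fitted with edgeR 4.0.16 (R 4.3.3; quasi-likelihood test, robust, filterByExpr, TMM factors shared by both alleles of a library), with library as a block and an allele effect per group. Single alleles and the 12 parental libraries were fitted with 1 mean per group. SE is the log2 change divided by the square root of the F statistic. All tests were two-sided. Fits were tested on simulated data. A Col segment was a run of at least 5 genes, with at most 2 failing in a row, with 20 or more counts per group. Levels are CPM after TMM, and depth was between 6047673 and 29376326 counts per F1 library.

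The genes named were PRMT5; the 12 genes with the largest change in each direction outside the Col regions, among those called, without overlap of libraries and with a mean of at least 20 allele counts per genotype; the 3 most counted genes of each Col region; and up to 4 called members of each of 14 gene lists, all of whose members were tested or counted as they stand. Of 281 list genes, 250 have their symbol among the RefSeq names. LSF1, FLC, the genes at the ends of the regions and the gene pairs of the closing section were chosen after their values were seen. The members and lists were chosen with earlier results of these data known. Same-numbered libraries of WT and prmt5-5 did not deviate together. Alternatives were DESeq2 1.42.0 (Wald test, or its size factors), limma 3.58.1 on log ratios with 0.5 added, a factor per allele column, no filter, at least 20 counts in every library, counts divided by 2, a replicate block, other region limits, and each library left out in turn.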

Additional observations from a re-analysis of the deposited data

How the results depend on the processing

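The count of 655 called changes was 564 to 717 under the alternatives with all libraries and 566 to 730 with 1 of the 12 F1 libraries left out. Outside the Col regions the 370 became 257 with the DESeq2 Wald test, of which 241 were among the 370, and 415 with a scaling factor per allele column, of which 330 were. Leaving out 1 library gave 304 to 358, and 207 genes were called in each of the 20 fits and in the one reported. Only the Col segment left out gave 429, and leaving out 200 kb on each side of the regions as well, chosen after seeing the data, gave 367. The difference between crosses gave 0 to 1 genes with 1 library left out and 0 under each other alternative. The counts in F1 Col x Ler (366; 321 to 432) and F1 Ler x Col (443; 375 to 454), and those of the Col allele (3030; 2377 to 3061) and of the Ler allele (2895; 2278 to 2882), moved less than 1.5 times with 1 library left out. The parental interaction moved from 768 to 1640 with the DESeq2 Wald test and to between 380 and 1744 with 1 library left out; the cause was not tested. PRMT5 had a Ler share of 52.7% to 53.9% in WT and 0% to 0.253% in prmt5-5 with 1 library left out. A replicate block gave 697 called changes in all, 388 of them outside the Col regions (352 shared with the 370), and 0 between crosses. Replicate numbers do not pair the samples (correlations of -0.015 to 0.052). Of 51 named genes, 17 changed their call in at least 1 alternative and 0 changed sign where called. At the depth of these libraries, ratios of alleles with a few counts rest on single fragments.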

Other observations

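Called genes outside the Col regions were in places neighbours. Among tested genes in chromosome order, 17 pairs of neighbours were both called, holding 33 genes, and in 14 pairs both had the same direction. Of all 16071 tested genes there, 370 (2.30%) were called. How many such pairs that share alone would give was not computed, so the count is no result about grouping. AT5G50310 lies next to AT5G50315, with changes of 3.08 and 0.69. The cytochrome P450 genes CYP72A13 and CYP72A14 had -0.39 and -0.57, and CYP71B4 and CYP71B26 -0.32 and -0.34; these are pairs of related copies, between which reads may be split. AT1G51830 and AT1G51840 had 0.44 and 0.42, and AT4G36050 and AT4G36052 0.63 and 0.57. In 3 pairs the directions were opposite: AIG2, a gene induced by bacterial avirulence, had 0.41 and its neighbour AT3G28940 -0.21. ECR1, a subunit of the enzyme that activates RUB/NEDD8, had -0.45 and AT5G19190 0.35. AT1G44510 had -1.88 and NPQ4, the PsbS protein of photoprotection, 0.11.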
